A study of Mus musculus with 20 samples.

Results

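The Z-disc is the border of the sarcomere, where actin filaments of neighbouring sarcomeres are cross-linked and where titin is anchored. The 8 genes described here, Tcap, Csrp3, Actn2, Ldb3, Myoz2, Nebl, Synpo2l and Pdlim5, encode proteins of this structure, and were taken from a fixed list of names out of 49005 genes with counts in mouse heart. The genes were chosen by measured levels in these same libraries. The list is named for Tcap, whose levels lay far apart between females and males, and the sources used here do not say which other values were used. The differences between the sexes are therefore given for the 8 genes as descriptions, with no p-value. Where they are counted at an adjusted p under 0.05, the count gives the genes' place among all genes. Because of the choice, it is not independent evidence. All 8 genes passed the filter on low counts, which 18069 genes passed.

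The hearts came from wild-type C57BL/6 mice of both sexes at 12 weeks of age, fed a high-fat diet or chow. There were 5 high-fat females, 5 chow females, 5 high-fat males and 5 chow males. The samples labelled PA were read as high-fat, because the series names no diet other than chow and a high-fat diet. The labels give neither the length of the diet nor the time of day of collection, and do not state that each library is a separate animal, so the tests below weigh differences against variation among libraries that may be technical. Polyadenylated RNA was sequenced. Of the 20 libraries, 19 were counted over exon pieces and held 57805110 to 85794067 counts each. Chow male 4 was counted per gene and entered no comparison, which left 4 chow males. Levels are in CPM, counts per 1000000 counts of the library after scaling with normalisation factors.

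The Y-linked gene Kdm5d matched the labelled sex in 19 of 19 libraries, at 17.98 CPM or more in males and 0 in females. High-fat females 4 and 5 stood apart from the other libraries. Their nuclear RNA Malat1 was at 117 and 63.9 CPM, against 1132 to 1533 CPM in the other 17 libraries. Titin (Ttn), the giant filament that Tcap caps, was at 1387 and 685 CPM in them. Results that rest on these libraries are given with and without them. Summed over 10 cardiomyocyte markers, the levels were 108090.0 to 128976.3 CPM in high-fat females, 120258.6 to 128749.1 in chow females, 111910.2 to 118849.2 in high-fat males and 121819.4 to 130286.0 in chow males. The sums of 12 skeletal muscle markers, from muscle that also holds much Tcap, were at 7.35 CPM or less in every library.

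At the Z-disc, α-actinin rods cross-link the thin filaments, and a layer of adaptor proteins binds both α-actinin and titin. Tcap, also called telethonin, clamps the ends of titin molecules together. Several of the adaptors carry LIM or PDZ domains and bind signalling enzymes such as calcineurin and protein kinase C. Mutations of TCAP, CSRP3, ACTN2 and LDB3 in humans are known from cardiomyopathies.

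Tcap is a small gene of 2 exons on chromosome 11 (chr11:98383811-98384953, plus strand, GRCm38), and none of its neighbours overlaps it. Stard3 ended 2699 bases before it and Pnmt began 1497 bases after it. The coding sequence across the only splice junction is shown because both exons could be counted separately. It runs from the start codon at position 98383847 through the end of the first exon at 98383956 and on from 98384152 to 98384211, as in GENCODE vM21. Capitals mark the second exon.
Tcap: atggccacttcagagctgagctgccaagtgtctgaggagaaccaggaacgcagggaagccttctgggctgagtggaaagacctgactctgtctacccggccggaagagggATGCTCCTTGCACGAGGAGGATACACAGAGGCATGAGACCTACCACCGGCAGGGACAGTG

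Promoter windows of 300 bases from RefSeq (GRCm38.p6) were matched for 7 of the 8 genes, all but Tcap, in 14 entries, since a gene can have several starts. The stretches of 150 bases below were chosen for 4 genes to show, in capitals, 1 kind of motif each, and each lies on the minus strand. Matches to CANNTG other than CACGTG were left in lower case. Actn2 (chr13:12340733-12340882) had CACGTG, the E-box that clock factors bind, 84 and 48 bases upstream of the start. Ldb3 (chr14:34588682-34588831) had the SRF motif, the CArG box, 35 bases upstream. Myoz2 (chr3:123034988-123035137) and Synpo2l (chr14:20668355-20668504) had the MEF2 motif, 33 and 109 bases upstream.
Actn2: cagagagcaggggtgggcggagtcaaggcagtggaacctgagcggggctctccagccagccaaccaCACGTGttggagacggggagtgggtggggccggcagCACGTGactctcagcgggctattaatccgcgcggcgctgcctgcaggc
Ldb3: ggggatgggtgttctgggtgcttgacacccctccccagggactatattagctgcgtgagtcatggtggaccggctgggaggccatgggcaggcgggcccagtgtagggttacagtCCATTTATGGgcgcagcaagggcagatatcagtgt
Myoz2: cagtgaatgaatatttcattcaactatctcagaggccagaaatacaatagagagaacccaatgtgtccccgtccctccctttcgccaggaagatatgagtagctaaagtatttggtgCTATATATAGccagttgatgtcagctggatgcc
Synpo2l: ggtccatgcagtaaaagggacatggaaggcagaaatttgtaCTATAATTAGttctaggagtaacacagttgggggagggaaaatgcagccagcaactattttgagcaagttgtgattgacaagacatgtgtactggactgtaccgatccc

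Each motif was searched on both strands. Of 32851 promoter windows, 0.557% held the MEF2 motif, which 2 of the 7 genes had, Myoz2 and Synpo2l. The SRF motif was in 1.63% of windows and in those of Ldb3 and Nebl. CACGTG, which is also one form of CANNTG, was in 7.15% of windows and in those of Actn2 and Nebl. CANNTG, the E-box of muscle regulators, was in 72.3% of windows and in 10 of the 14 entries, which belong to 6 of the 7 genes. The GATA motif AGATAA was in 11.2% of windows and the TEAD motif CATTCC in 14.7%, and of the 7 genes Nebl had each of them. The D-box TTATGTAA, to which Dbp binds, was in 0.938% of windows and in none of the 7 genes' windows. A match describes the letters of the window and not a bound site.

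Per kilobase of all exon pieces of a gene, Tcap had the highest mean of the 8 genes in females and not in males. These lengths include long pieces that held few counts. In chow females piece 8 of Csrp3, 1595 of its 2671 bases, averaged 7.94 CPM. Piece 10 of Myoz2, 2020 of its 3423 bases, averaged 2.16 CPM there. The order of the genes thus depends on the pieces taken into the length. In high-fat females Tcap averaged 719 ± 169 CPM per kilobase and Actn2 702 ± 95.4, a gap within their spread (SD, n = 5). In chow females Tcap averaged 791 ± 48.3 CPM per kilobase and Actn2 659.5 ± 17.4 (SD, n = 5). In high-fat males Actn2 led at 657 ± 8.39 CPM per kilobase, followed by Csrp3 at 424 ± 11.3, Tcap at 354 ± 59.6 and Myoz2 at 311 ± 26.2 (SD, n = 5). In the 4 chow males counted over exon pieces, Actn2 led at 677 ± 17.9 CPM per kilobase. Csrp3 at 456 ± 25.3, Myoz2 at 326 ± 7.08 and Tcap at 297 ± 51.2 followed (SD, n = 4). Tcap and Myoz2 did not differ beyond their spread in either male group counted over pieces. Chow male 4, counted per gene, had another order. It held Actn2 at 553, Tcap at 408, Csrp3 at 387 and Myoz2 at 260 counts per 1000000 counts per kilobase. No other library was counted per gene, so the way of counting and the library itself cannot be told apart in this order. Piece 30 of Nebl, of 1 base, held 5014 counts over the 19 libraries, and piece 14 of Myoz2, of 16 bases, held 111794. A read on a piece of 1 base also lies on bases outside it, so a read could be counted in several pieces. Sums over many pieces, 27 in Actn2 and 16 in Myoz2 against 2 in Tcap, can be raised by this. The order per kilobase is thus an order of summed counts and not of transcript levels. The size of this effect was not tested. Ldb3 at 124 to 131, Pdlim5 at 71.6 to 85.7, Synpo2l at 16.6 to 20.6 and Nebl at 12.1 to 20.2 were the lower group means per kilobase.

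**Figure D1:**
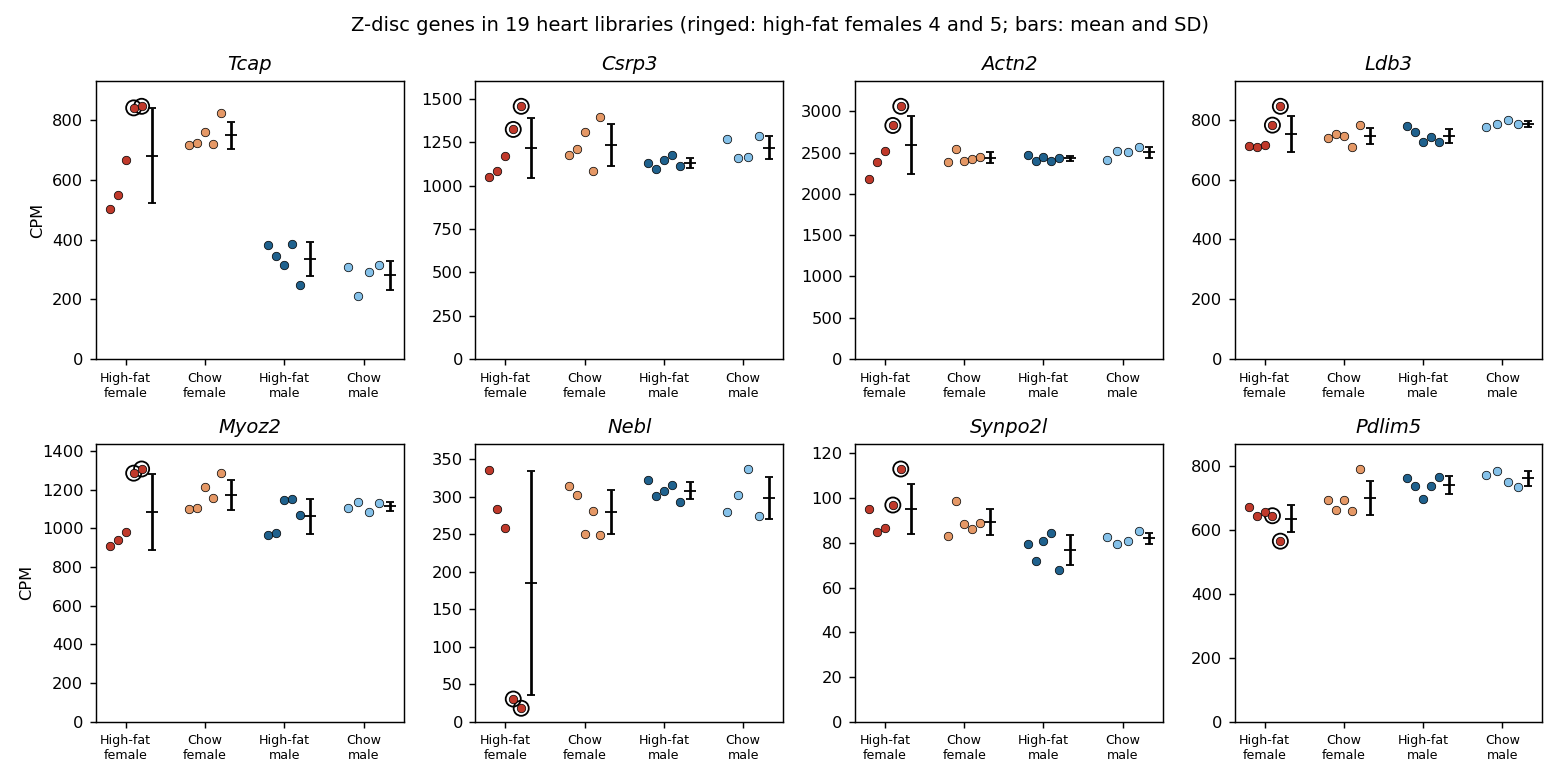
Level of each of the 8 Z-disc genes in 19 heart libraries, in CPM on linear axes from 0, with groups from left to right high-fat females, chow females, high-fat males and chow males. Points are libraries, bars show the mean and SD, and rings mark high-fat females 4 and 5; Tcap in both female groups lies above every male library, and Nebl falls to 30.2 and 17.9 CPM in the ringed libraries.

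Tcap was higher in females than in males on both diets, in every library. It was at 504, 549.9, 667, 842 and 847 CPM in high-fat females and at 717, 723, 761, 721 and 825 CPM in chow females. It was at 381, 347, 315, 386 and 248 CPM in high-fat males and at 308, 209.8, 292 and 315 CPM in chow males. The lowest female library, a high-fat one at 504 CPM, stood above the highest male library at 386 CPM, so the sexes did not overlap on either diet. Group means were 682 ± 159.8 CPM in high-fat females and 336 ± 56.5 CPM in high-fat males (SD, n = 5 each), a log2 difference of 1.02 ± 0.15 (SE), or 2.03-fold. They were 749.6 ± 45.8 CPM in females fed chow (n = 5) and 281 ± 48.5 CPM in chow males (SD, n = 4), a log2 difference of 1.41 ± 0.16, or 2.67-fold. Without high-fat females 4 and 5 the difference on high fat was 0.77 ± 0.13.

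Both exons of Tcap showed the difference. The first exon piece, of 146 bases, averaged 197 ± 47.1 CPM in high-fat females and 96.7 ± 15.5 CPM in high-fat males (SD, n = 5 each). On chow it averaged 213 ± 13.7 CPM in females and 81.8 ± 13.996 CPM in males. The second piece, of 802 bases, averaged 485 ± 113 CPM in high-fat females and 239 ± 41.2 CPM in high-fat males, and 536 ± 32.995 CPM in females fed chow and 199 ± 34.5 CPM in males fed chow. The log2 differences by piece were 1.02 and 1.03 on high fat and 1.38 and 1.43 on chow. The library that was counted per gene, chow male 4, held 12255 Tcap counts and can be set beside the others only roughly. Over 156 genes of 2 pieces, the log2 ratio of Tcap to that library was 1.82 to 2.06 in chow females, at the 98.7th percentile of these genes. It was 0.67, 0.57 and 0.65 in chow males 1, 3 and 5, at the 94.2 to 94.9th percentile, and 0.11 in chow male 2, at the 63.5th.

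Diet did not give a called change of Tcap in either sex. In females the log2 change was -0.14 ± 0.15 (SE; adjusted p = 0.626, edgeR quasi-likelihood test with Benjamini-Hochberg adjustment). In males it was 0.26 ± 0.16 (adjusted p = 0.772, edgeR), and the difference between the sexes' diet changes was -0.39 ± 0.22 (adjusted p = 0.554, edgeR). High-fat females 1 to 3, at 504 to 667 CPM, lay under all 5 chow females, and high-fat females 4 and 5, at 842 and 847 CPM, lay above them. Without libraries 4 and 5 the change in females was -0.39 ± 0.13 (adjusted p = 0.0913, edgeR).

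Csrp3, muscle LIM protein, binds Tcap and α-actinin and is counted among the mechanical sensors of the muscle cell. It was at 1049.8, 1087, 1169, 1324 and 1457.5 CPM in high-fat females and at 1177, 1209, 1310.0, 1082 and 1395 CPM in chow females. It was at 1130.3, 1097, 1146, 1174 and 1112 CPM in high-fat males and at 1266, 1157, 1165 and 1287.5 CPM in chow males. The 4 groups overlapped. The log2 change with diet was -0.02 ± 0.08 in females (adjusted p = 0.912, edgeR) and -0.11 ± 0.09 in males (adjusted p = 0.900, edgeR).

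Actn2 encodes α-actinin-2, the cross-linker of the actin filaments, and had the highest CPM of the 8 genes, summed over its 27 pieces. It was at 2173, 2386, 2518, 2827 and 3059 CPM in high-fat females and at 2383, 2544, 2394, 2419 and 2441 CPM in chow females. In males it kept to 2394.5 to 2466 CPM on high fat and 2411 to 2570.2 CPM on chow. The widest spread was in high-fat females, where libraries 4 and 5 were the highest of all 19. The log2 change with diet was 0.09 ± 0.07 in females (adjusted p = 0.472, edgeR) and -0.04 ± 0.07 in males (adjusted p = 0.999, edgeR).

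Myoz2, calsarcin-1, ties calcineurin to the Z-disc and binds Tcap and α-actinin. It was at 909, 938, 984, 1286 and 1308 CPM in high-fat females and at 1099.7, 1107, 1214, 1158 and 1289 CPM in chow females. It was at 968, 976, 1148, 1154.5 and 1069.9 CPM in high-fat males and at 1105, 1136, 1085.5 and 1134 CPM in chow males. High-fat females 1 to 3 lay under every chow female, while libraries 4 and 5 were among the highest. Over all libraries the log2 change with diet in females was -0.11 ± 0.09 (adjusted p = 0.519, edgeR). Without libraries 4 and 5 it was -0.32 ± 0.06 (adjusted p = 0.00675, edgeR), a called decrease. In that fit 4.95% of all genes were called. Other genes of the muscle cell moved with it there: 6 of 10 cardiomyocyte markers were called lower and 0 higher, with a median log2 change of -0.21, as were 4 of 9 thin filament genes, with a median of -0.23. Of 6 erythroid markers 5 were called higher, with a median of 0.63, and of 10 fibroblast markers 3 were. The part of these genes in the Myoz2 change was not tested. An offset for GC content, with all 19 libraries, turned the sign to 0.69 ± 0.31 (adjusted p = 0.215, edgeR), and Myoz2 had the lowest GC content of the 8 genes, 39.7%. In males the change was -0.07 ± 0.10 (adjusted p = 0.999, edgeR).

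Of the 8 genes, 0 were called for diet in females, where 2.53% of all genes were called by edgeR at an adjusted p under 0.05. In males it was likewise 0 of 8, with 0.764% of all genes called. At an unadjusted p under 0.05 there was 1 of 8 in females, Pdlim5, beside 3390 of all 18069 genes. In males there were 0 of 8, beside 1539 of all genes. DESeq2 called 0 of the 8 in either sex, beside 993 of all genes in females and 256 in males. For the mean diet effect over both sexes 0 of 8 were called, with 2.93% of all genes called. There was 1 of 8 at an unadjusted p under 0.05, beside 2686 of all 18069 genes. DESeq2 called 0 of the 8, beside 857 of all genes. For the interaction of diet and sex 0 of 8 were called, with 0.0% of all genes called. There were 0 of 8 at an unadjusted p under 0.05, beside 1839 of all 18069 genes. DESeq2 called 0 of the 8, beside 58 of all genes. In each diet comparison the libraries of the groups overlapped for all 8 genes. Groups did not overlap for 4.53% of all genes in females and 7.58% in males.

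**Figure D2:**
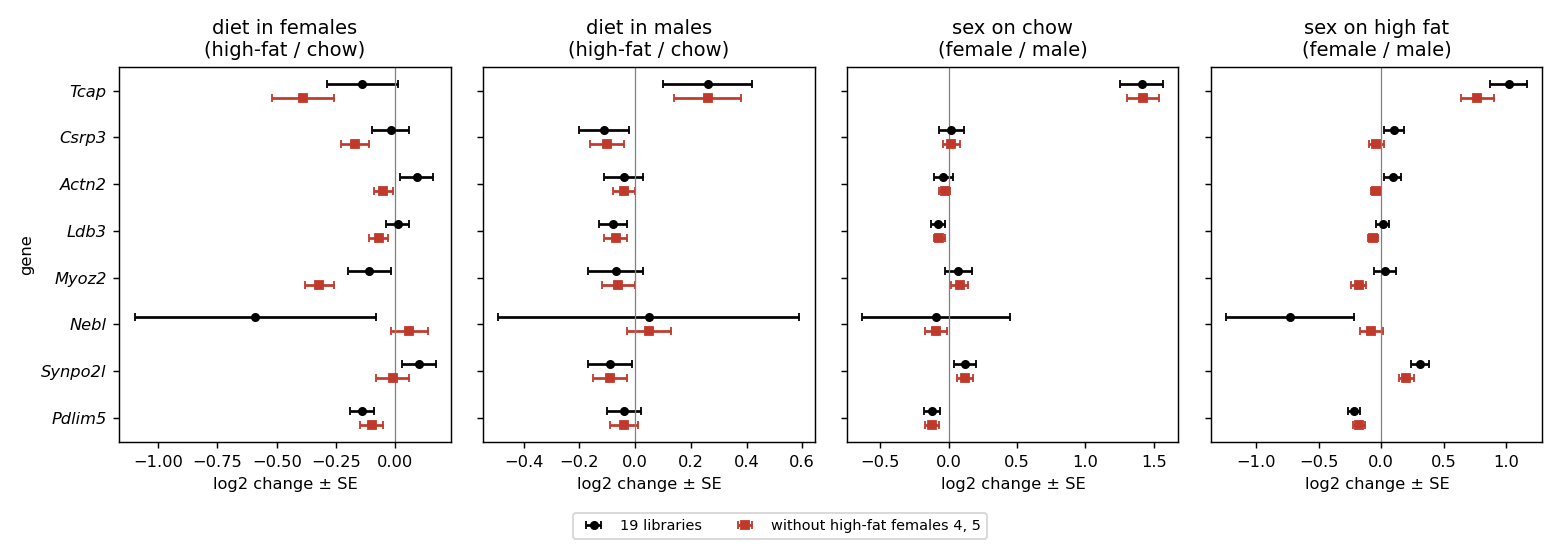
Log2 changes of the 8 genes with their SE, for high-fat over chow in females and in males and for females over males on chow and on high fat. Circles show the fit over 19 libraries and squares the fit without high-fat females 4 and 5; Tcap stands at 1.41 and 1.02 in the sex panels, and Myoz2 in females moves to -0.32 without the 2 libraries.

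The differences between the sexes were counted for the 8 genes as a description. The genes were chosen by levels in these libraries, so the counts are not independent evidence. On high fat 3 were past the threshold, Tcap and Synpo2l higher and Pdlim5 lower in females, with 10.3% of all genes past it, 6.4% higher and 3.92% lower. With the GC offset, with the groups compared alone and with chow male 4 joined as it stands, Tcap alone was past it. On chow it was 1 of 8, Tcap, which was higher in females, with 3.22% of all genes past it and 1.73% higher. The libraries of the sexes did not overlap for the same 3 genes on high fat, against 10% of all genes, and for Tcap on chow, against 11.7% of all genes.

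Synpo2l, an actin-associated protein that binds α-actinin-2, was at 94.9, 84.9, 86.5, 96.9 and 113 CPM in high-fat females and at 79.2, 71.7, 80.9, 84.5 and 68.0 CPM in high-fat males. Every high-fat female lay above every high-fat male, by a narrow margin at 84.9 against 84.5 CPM. The log2 difference was 0.31 ± 0.07, and 0.20 ± 0.06 without high-fat females 4 and 5. With the GC offset it was 0.19 ± 0.08 and no longer past the threshold. On chow the levels were 83.2 to 98.7 CPM in females and 79.4 to 85.1 CPM in males, which overlapped, with a log2 difference of 0.12 ± 0.08. The log2 change with diet was 0.10 ± 0.07 in females (adjusted p = 0.489, edgeR) and -0.09 ± 0.08 in males (adjusted p = 0.917, edgeR).

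Pdlim5, the PDZ and LIM protein ENH that binds α-actinin and protein kinase C, was at 671, 643, 655, 644 and 565 CPM in high-fat females and at 763, 737, 696, 737 and 766 CPM in high-fat males. Every high-fat female lay under every high-fat male. The log2 difference was -0.22 ± 0.05, and it was 0.13 ± 0.12 with the GC offset, so its sign rested on that choice. On chow it was at 693, 661, 694, 661 and 791 CPM in females and at 772, 786, 752 and 735 CPM in males, which overlapped, with a log2 difference of -0.12 ± 0.06. The log2 change with diet was -0.14 ± 0.05 in females (adjusted p = 0.182, edgeR) and -0.04 ± 0.06 in males (adjusted p = 0.999, edgeR).

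Ldb3, called Cypher or ZASP, binds α-actinin through its PDZ domain, and its long forms carry LIM domains. Its levels were the most even of the 8 genes, at 708 to 845 CPM in high-fat females, 708 to 782 in chow females, 724 to 778 in high-fat males and 776 to 799 in chow males. The log2 change with diet was 0.01 ± 0.05 in females (adjusted p = 0.900, edgeR) and -0.08 ± 0.05 in males (adjusted p = 0.815, edgeR). Pieces 1 to 13 of its 20 exon pieces end with the short transcripts, and pieces 14 to 20 belong to the long ones, which encode the LIM domains. Piece 7, of 359 bases, was at 76.3 to 93.3 CPM in the 17 libraries, while pieces 8 to 10 were all under 5 CPM.

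Among the 4 comparisons, the share of Ldb3 counts in the long end lay farthest apart between high-fat and chow males. It was 34.5, 33.8, 34.2, 33.6 and 33.3% in high-fat males and 30.4, 29.4, 31.9 and 29.4% in chow males, and the groups did not overlap. The difference was 3.58 percentage points, with an exact permutation p of 0.00794, two-sided, the smallest that 5 against 4 libraries allow. Over the 8 tests of this kind the adjusted p was 0.0635, which misses the threshold. Between high-fat and chow females the shares were 33.7 ± 1.42% and 33.2 ± 1.57% (SD, n = 5 each; exact permutation p = 0.587). Chow males, at a mean of 30.3%, also lay 2.89 points under chow females, with overlapping libraries. High-fat males averaged 33.9%, so chow males had the lowest mean of the 4 groups. With the coding pieces of the long end alone, without its last exon, the difference in males was 0.822 points (exact permutation p = 0.0317, adjusted 0.127). In females it was then 0.782 points (exact permutation p = 0.0159, adjusted 0.127).

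In Pdlim5 the pieces 26 to 40, which hold the end of the long transcripts with LIM domains, took 4.76 ± 1.15% of the counts in high-fat females and 4.52 ± 0.270% in chow females (SD, n = 5 each; exact permutation p = 0.659). They took 5.03 ± 0.725% in high-fat males (n = 5) and 4.45 ± 0.324% in chow males (SD, n = 4; exact permutation p = 0.222). Without high-fat females 4 and 5 the difference in females was 1.04 points (exact permutation p = 0.0179, the smallest that 3 against 5 libraries allow).

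Nebl encodes nebulette, the cardiac relative of nebulin that binds actin near the Z-disc. It was at 335, 283, 259, 30.2 and 17.9 CPM in high-fat females and at 314, 302, 249.8, 281 and 249 CPM in chow females. In males it was at 293 to 321 CPM on high fat and at 274 to 337 CPM on chow. The low values were those of high-fat females 4 and 5. The log2 change with diet in females was -0.59 ± 0.51 (adjusted p = 0.533, edgeR), and 0.06 ± 0.08 without the 2 libraries. In males it was 0.05 ± 0.54 (adjusted p = 0.999, edgeR). The model estimates 1 spread per gene over the 4 groups, so this SE also reflects high-fat females 4 and 5. Among males Nebl was at 20.2 ± 0.748 CPM per kilobase on high fat (SD, n = 5) and 19.6 ± 1.86 on chow (SD, n = 4).

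The counts of Nebl were low along all its well-counted pieces in these 2 libraries. Its large last exon piece, of 4640 bases, held 54.4 and 46.7% of its counts there and 33.2 to 39.7% in the other 17 libraries. The remaining pieces together were at 13.7 and 9.52 CPM there, against 152 to 221 CPM in the others. The 12 pieces upstream of the nebulette start, which belong to a transcript with LIM domain from the same locus, held 3 to 27 counts per library.

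**Figure D3:**
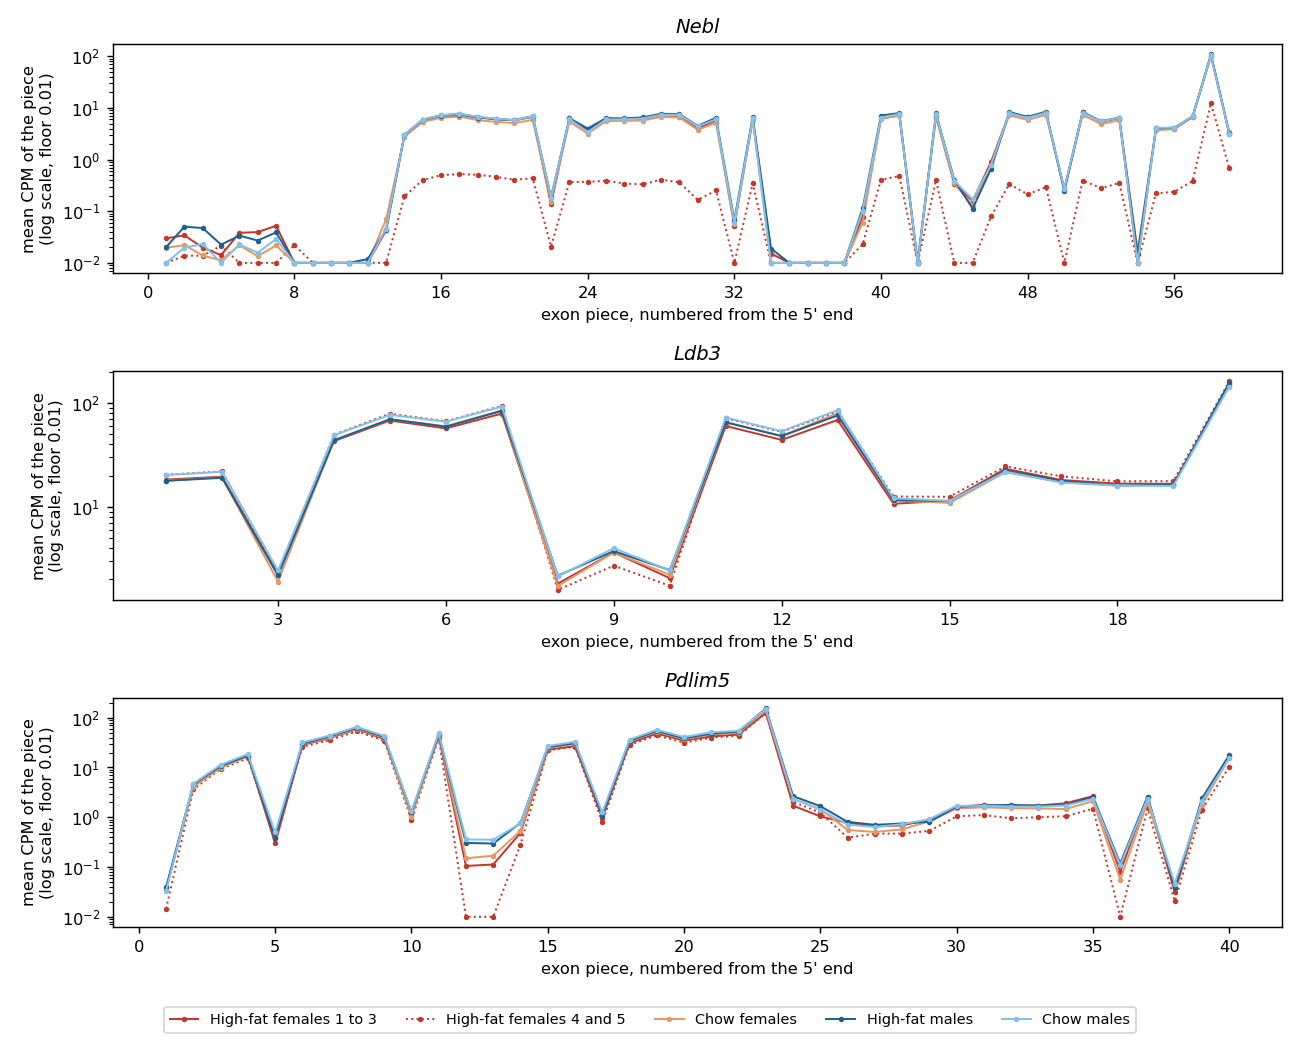
Mean CPM of each exon piece of Nebl, Ldb3 and Pdlim5, numbered from the 5′ end, on a log axis with a floor of 0.01. Lines are the means of high-fat females 1 to 3, high-fat females 4 and 5, chow females, high-fat males and chow males; the dotted line of high-fat females 4 and 5 runs under the others along the well-counted pieces of Nebl, with 12.4 against 103 to 109 CPM in the large last piece.

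Among females Myoz2 and Csrp3 varied with Tcap by both measures of correlation. Over the 10 female libraries the log2 CPM of Myoz2 followed that of Tcap with Pearson's r of 0.96 (permutation p = 2e-05, adjusted p = 0.00044) and Spearman's rho of 0.98 (permutation p = 4e-05, adjusted 0.00088). Without the 2 libraries farthest from the median of Myoz2 r was 0.97, and without high-fat females 4 and 5 it was 0.94. Csrp3 had r of 0.85 (permutation p = 0.00083, adjusted p = 0.00913) and rho of 0.92 (adjusted p = 0.00638). Without the 2 libraries farthest from the median of Csrp3 its r was 0.82. Ldb3 had r of 0.76 (permutation p = 0.0106, adjusted p = 0.0634) and rho of 0.85 (adjusted p = 0.0191), and Actn2 r of 0.72 (permutation p = 0.0223, adjusted p = 0.0980) and rho of 0.77 (adjusted p = 0.0362), past the threshold by rho alone. Nebl went the other way, with r of -0.58 (permutation p = 0.0354, adjusted p = 0.130) and rho of -0.84 (adjusted p = 0.0191). Synpo2l, with r of 0.34, and Pdlim5, with r of 0.01, had adjusted p of 0.514 and 0.969 by permutation. Without high-fat females 4 and 5, rho was 0.86 for Csrp3, 0.71 for Ldb3, 0.55 for Actn2 and -0.69 for Nebl. The exact permutation p of these, not adjusted, were 0.0107, 0.0576, 0.171 and 0.0694. Pearson's r was then 0.81, 0.74, 0.66 and -0.62 (exact permutation p = 0.0167, 0.034, 0.0763 and 0.11). Among the 9 males r was -0.34 for Myoz2 (exact permutation p = 0.380, adjusted p = 0.558) and 0.03 for Csrp3 (exact permutation p = 0.937, adjusted p = 0.969). The adjusted values belong to 22 relations of Tcap with 11 genes in each sex, over which p was adjusted. Each relation pools both diets of a sex, and the part of diet was not tested. The difference between the sexes' correlations was not tested. The Z-disc genes were chosen by levels in these libraries, so their p-values here are not independent evidence. How often other genes reach such r values among females was not tested, nor were the cardiomyocyte markers. Sema6c, which is not among the Z-disc genes described here, had r of 0.92 with Tcap over the 10 females. Bhlhe41 and Tmem86a had 0.5 each. The relations thus cannot be taken as particular to the Z-disc.

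Across all 19 libraries the genes most like Tcap were genes of the circadian clock and its outputs. Among 8071 genes whose mean reached 10 CPM, Nr1d1 led with r of 0.96, followed by Dbp at 0.95, Bhlhe41 at 0.95, Sema6c at 0.93 and Tmem86a at 0.93. Without high-fat females 4 and 5, Nr1d1 at 0.96, Dbp at 0.94, Bhlhe41 at 0.94 and Hnrnpl at 0.93 were among the most alike. These r values span 10 or 8 female and 9 male libraries that lie apart in Tcap, so they mostly describe the gap between the sexes. Of the other 7 genes, Synpo2l ranked highest, at place 424 with r of 0.72.

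Nr1d1 encodes REV-ERBα, a clock repressor, Dbp a clock-driven activator that binds D-boxes, and Arntl the clock activator BMAL1. Nr1d1 was at 98.0 to 151 CPM in high-fat females and 52.3 to 63.2 CPM in high-fat males, with a log2 difference of 1.07 ± 0.10 (adjusted p = 4.91e-06, edgeR). On chow it was at 108 to 125 CPM in females and 41.7 to 54.7 CPM in males, with 1.24 ± 0.11 (adjusted p = 2.64e-06, edgeR). Dbp averaged 111 ± 24.6 CPM in high-fat females and 15.2 ± 3.79 CPM in high-fat males, 7.30-fold, and 91.8 ± 13.8 CPM in females fed chow and 8.95 ± 1.4999 CPM in males fed chow, 10.3-fold. Arntl went the other way, with 7.56 ± 1.66 CPM in high-fat females and 31.1 ± 4.05 CPM in high-fat males, and 11.8 ± 2.37 CPM in females fed chow and 37.6 ± 2.19 CPM in males fed chow. Per2, a clock repressor, had log2 differences of 1.24 ± 0.21 on high fat (adjusted p = 0.00164, edgeR) and 0.85 ± 0.23 on chow (adjusted p = 0.0454, edgeR).

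On high fat, females had 10 of the 19 clock genes above and 5 below males, with 10.3% of all genes called, and on chow 9 above and 5 below, with 3.22% called. Cry1, Npas2 and Nfil3 were among the lower ones, with log2 differences of -0.53 ± 0.08, -1.59 ± 0.14 and -0.73 ± 0.13 on high fat (adjusted p = 0.000393, 1.86e-06 and 0.00255, edgeR). Clock genes thus differed between the sexes in the same libraries as Tcap, and their part in the Tcap difference was not tested. The labels give no time of collection, so time and sex cannot be told apart if the sexes were collected at different hours.

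Within the sexes the relation was seen only in part. The relations pool both diets of a sex, and the permutations crossed the diets. In males the group means of Tcap, Nr1d1 and Dbp were higher on high fat than on chow, and that of Arntl was lower. The part of diet in these relations was not tested. Over 9 males Tcap and Nr1d1 had r of 0.80 (exact permutation p = 0.0115, adjusted p = 0.0634) and rho of 0.85 (exact permutation p = 0.00607, adjusted p = 0.0191). Without the 2 libraries farthest from the median of Nr1d1 r was 0.89. Dbp had r of 0.67 (exact permutation p = 0.0434, adjusted p = 0.136) and rho of 0.87 (adjusted p = 0.0191). Arntl had r of -0.65 (exact permutation p = 0.0580, adjusted p = 0.154) and rho of -0.85 (adjusted p = 0.0191). Per2 had r of -0.44 (exact permutation p = 0.236, adjusted p = 0.433), against the direction of its difference between the sexes. Over 10 females Nr1d1 had r of 0.61 (permutation p = 0.0630, adjusted p = 0.154) and rho of 0.56 (adjusted p = 0.195). Without the 2 libraries farthest from the median of Nr1d1 r was 0.16. Over all 10 females r was 0.43 for Dbp, -0.03 for Per2 and 0.04 for Arntl (permutation tests, adjusted p = 0.433, 0.969 and 0.969).

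**Figure D4:**
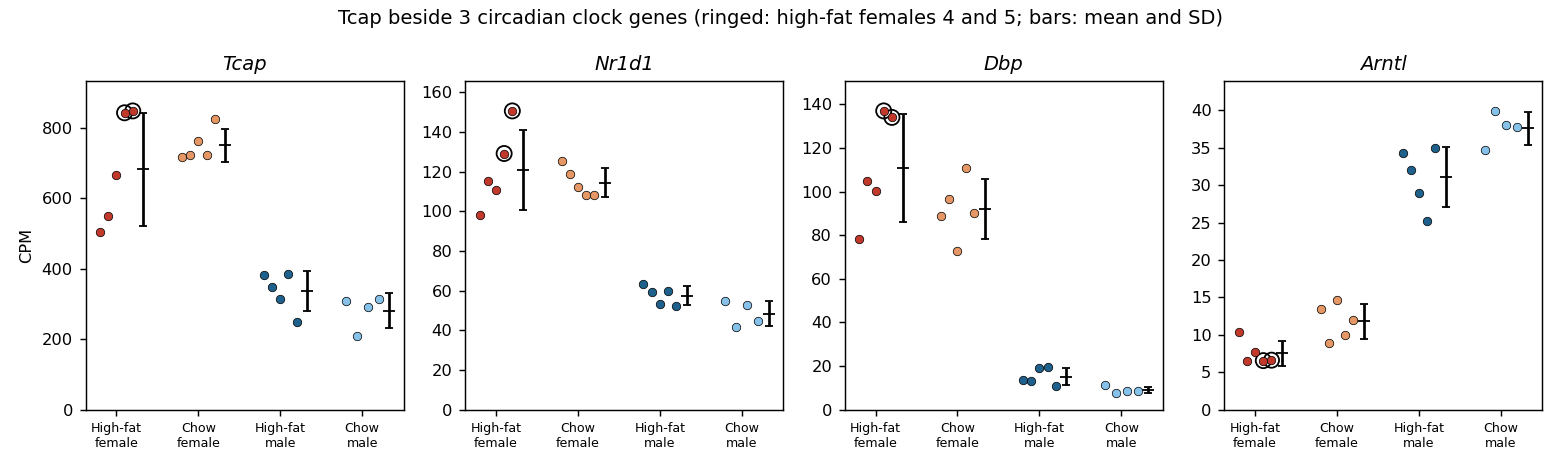
Level of Tcap and of the clock genes Nr1d1, Dbp and Arntl in 19 heart libraries, in CPM on linear axes from 0. Points are libraries, bars show the mean and SD, and rings mark high-fat females 4 and 5; females lie above males for Tcap, Nr1d1 and Dbp and below them for Arntl.

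Among 56 other genes of the Z-disc or linked to it, of which 55 were tested, called genes were lower in females more often than higher, by small counts. On high fat 2 were higher and 6 lower, with 10.3% of all genes called, and the median log2 difference was -0.07, against 0.01 over all genes. On chow 1 was higher and 3 were lower, with 3.22% of all genes called, and the median was -0.10, against 0.01. With the GC offset the counts were 2 higher and 3 lower on high fat, with 6.38% of all genes called, and 1 higher and 4 lower on chow, with 3.37% called. Without high-fat females 4 and 5 they were 2 higher and 12 lower on high fat, with 10.4% of all genes called, and 2 higher and 11 lower on chow, with 10.5% called.

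Rcan1, an inhibitor of calcineurin, had the smallest p of these genes. It was at 39.5, 40.2, 40.9, 43.7 and 50.2 CPM in high-fat females and at 55.8, 59.01, 68.7, 64.03 and 77.2 CPM in high-fat males. On chow it was at 40.7 to 46.6 CPM in females and 65.9 to 80.9 CPM in males, and the sexes did not overlap on either diet. The log2 differences were -0.60 ± 0.09 on high fat (adjusted p = 0.000414, edgeR) and -0.73 ± 0.09 on chow (adjusted p = 0.000129, edgeR). Ankrd23, a titin-binding ankyrin repeat protein, was at 60.4 ± 6.95 CPM in high-fat females and 87.6 ± 8.43 CPM in high-fat males, and at 61.8 ± 5.10 CPM in females fed chow and 96.0 ± 4.08 CPM in males fed chow. Its log2 differences were -0.54 ± 0.08 (adjusted p = 0.000616, edgeR) and -0.64 ± 0.09 (adjusted p = 0.000288, edgeR).

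Myot, myotilin, binds α-actinin and filamin at the Z-disc. It averaged 21.7 ± 2.05 CPM in high-fat females and 39.8 ± 6.25 CPM in high-fat males, with a log2 difference of -0.87 ± 0.13 (adjusted p = 0.000505, edgeR). It averaged 30.8 ± 5.87 CPM in females fed chow and 48.0 ± 7.13 CPM in males fed chow, with -0.64 ± 0.14 (adjusted p = 0.0134, edgeR). Pdlim2, an α-actinin-binding relative of Pdlim5, was higher in females, with log2 differences of 0.61 ± 0.09 on high fat (adjusted p = 0.000449, edgeR) and 0.47 ± 0.10 on chow (adjusted p = 0.0102, edgeR). Csrp1, a relative of Csrp3, was higher in females on high fat, with a log2 difference of 0.30 ± 0.06 (adjusted p = 0.00371, edgeR), and Cavin4, a muscle caveola protein, was lower, at -0.32 ± 0.06 (adjusted p = 0.00255, edgeR).

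Diet called few of the other Z-disc genes. In females 1 was higher and 1 lower, with 2.53% of all genes called. Myot was lower, with a log2 change of -0.50 ± 0.13 (adjusted p = 0.0469, edgeR), at 18.7 to 24.1 CPM in high-fat females and 25.1 to 40.1 CPM in chow females. Flnc, filamin C, which was named after its values were seen, was higher, with a log2 change of 0.34 ± 0.07 (adjusted p = 0.0213, edgeR), at 453 to 599 CPM in high-fat females and 357 to 449.96 CPM in chow females. Both calls were lost with the GC offset, at -0.28 ± 0.16 for Myot (adjusted p = 0.303, edgeR) and 0.29 ± 0.07 for Flnc (adjusted p = 0.0513, edgeR). Myot without high-fat females 4 and 5 was at -0.45 ± 0.14 (adjusted p = 0.0678, edgeR), and not called. In males 0 of 55 were called by edgeR, with 0.764% of all genes called.

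Other parts of the sarcomere gave the following counts between the sexes, beside 10.3% of all genes called on high fat and 3.22% on chow. Of 8 thick filament genes 0 were called on either diet. Of 9 M-band genes 1 was called on high fat, Lrrc39, lower in females with a log2 difference of -0.37 ± 0.07 (adjusted p = 0.00462, edgeR), and 0 on chow. Lrrc39 was, with the GC offset, at 0.10 ± 0.13 (adjusted p = 0.652, edgeR), and 0 of 9 were called. Without high-fat females 4 and 5 it was at -0.28 ± 0.05 (adjusted p = 0.00284, edgeR). In that fit 2 of 9 were called lower, with 10.4% of all genes called. Of 9 thin filament genes 2 were lower in females on high fat, Lmod2, an actin nucleator, at -0.60 ± 0.12 (adjusted p = 0.00418, edgeR) and Acta1, skeletal α-actin, at -0.97 ± 0.22 (adjusted p = 0.0124, edgeR). On chow Acta1 alone was called, at -1.03 ± 0.24 (adjusted p = 0.0212, edgeR). Cardiomyocyte markers had 0 of 10 genes called on either diet, and skeletal muscle markers 0 of 7 tested. Of 10 fibroblast markers 7 were higher in females on high fat and 2 on chow, and their part in these differences was not tested. In bulk tissue fewer cells of a type and less RNA per cell cannot be told apart.

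Of 10 tested genes of known partners of Tcap, 2 were higher in females on high fat, Kcne1, the potassium channel subunit minK, with a log2 difference of 0.80 ± 0.23 (adjusted p = 0.0334, edgeR) and Pkd1, polycystin-1, at 0.20 ± 0.06 (adjusted p = 0.0449, edgeR), and 0 on chow, beside 10.3% and 3.22% of all genes called. With the GC offset 0 of 10 were called on high fat. When high-fat females 4 and 5 were left out, Kcne1 was higher and 1 other gene lower, and Pkd1 was at 0.14 ± 0.06 (adjusted p = 0.137, edgeR). Of 15 calcineurin and MEF2 genes 1 was higher and 1 lower in females on high fat, again beside 10.3% of all genes, Nfatc2 at 0.36 ± 0.07 (adjusted p = 0.00354, edgeR) and Rcan1 as above. On chow 1 was higher, Nfatc2 at 0.44 ± 0.07 (adjusted p = 0.00221, edgeR), and 2 were lower, Rcan1 and Srf, beside 3.22% of all genes. With diet in females Mef2d, a MEF2 factor, was higher, with a log2 change of 0.30 ± 0.06 (adjusted p = 0.0122, edgeR) and the calcineurin subunit Ppp3cc lower, at -0.20 ± 0.05 (adjusted p = 0.0375, edgeR), beside 2.53% of all genes called. Ppp3cc was, with the GC offset, at 0.03 ± 0.12 (adjusted p = 0.923, edgeR), and not called. Without high-fat females 4 and 5 it was at -0.25 ± 0.05 (adjusted p = 0.00712, edgeR). Tnnt2, cardiac troponin T, was lower with diet in females, with a log2 change of -0.31 ± 0.06 (adjusted p = 0.0140, edgeR).

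**Figure D5:**
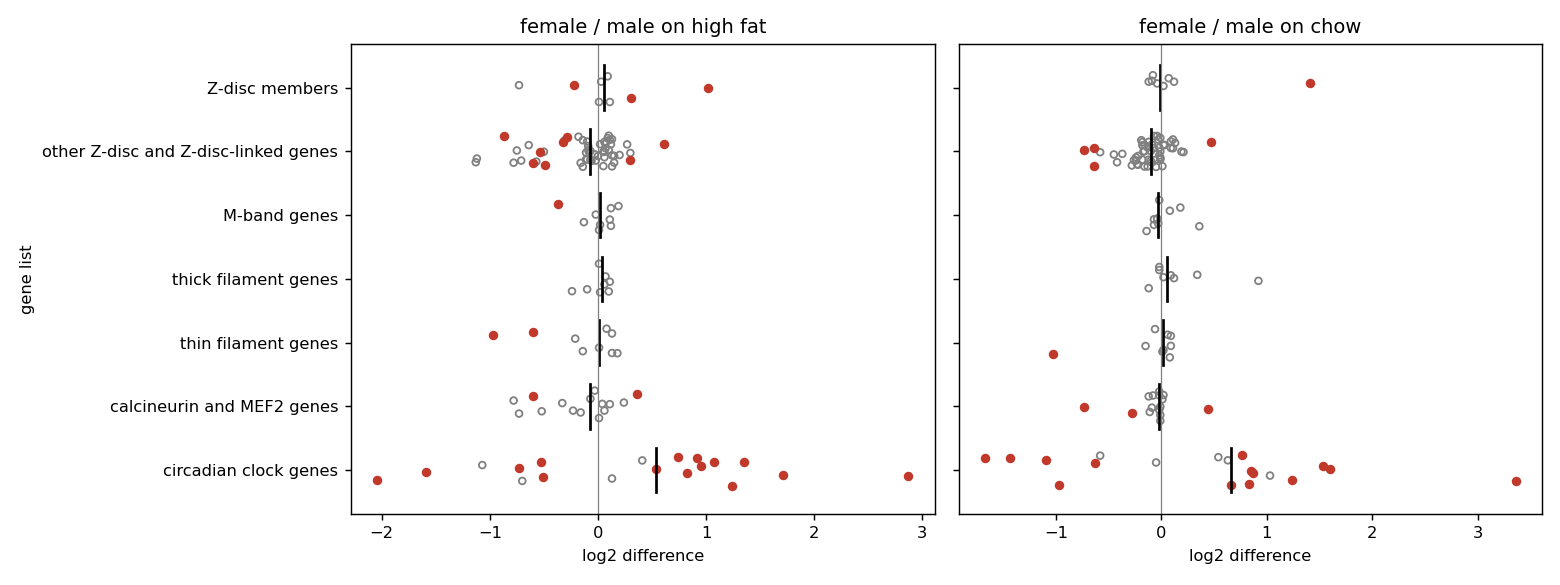
Log2 difference between females and males on high fat (left) and on chow (right) for the tested genes of 7 lists. Each point is a gene, filled points are past the threshold and bars show the median of the list; the clock genes spread most widely, with medians of 0.54 on high fat and 0.66 on chow, and the other Z-disc genes have medians of -0.07 and -0.10.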

How the data were processed

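The authors deposited counts of reads per exon piece for 19 hearts and counts per gene for 1 (chow male 4, 31686627 counts over 49315 genes). The submitters' processing notes name Salmon 1.5.1, DESeq2 1.32.0 and GRCm39, while the deposited pieces carry GRCm38 coordinates: 44225 of 48766 genes, 90.7%, start and end as in GENCODE vM21. The counter and its use of strand are not given in the sources used here. Counts were summed over 425461 pieces per gene ID. Of 33309 pieces with joined IDs, 27829 went to 1 gene. The other 5480, with 1.35 to 1.49% of the counts, were left out. None belonged to the 8 genes. One edgeR 4.0.16 quasi-likelihood model (R 4.3.3) with TMM factors was fitted over the 4 groups, with Benjamini-Hochberg adjustment over 18069 genes and calls at an adjusted p under 0.05. It was tested on simulated data. CPM values use the same factors.

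Shares of counts were compared with exact permutation tests over libraries, and relations with permutation tests, with 100000 resamples for 10 libraries. The 8 genes and the lists were chosen with earlier results of these data known. Named genes are the 8, up to 6 called genes with the smallest p of each list, 4 clock genes, and the 5 genes most like Tcap with and without high-fat females 4 and 5, of which 1 is not reported here. The alternatives were DESeq2 1.42.0, its size factors, filters of none and of 1 CPM in 5 libraries, the groups compared alone, a replicate block, a GC offset, the largest piece, chow male 4 joined as it stands, and libraries left out.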

Additional observations from a re-analysis of the deposited data

Results flagged for a closer look

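In 40 groups of 4 or 5 libraries, from 8 genes and the long-end shares of 2 of them, 2 libraries lay far from the rest of their group. Pdlim5 was at 565 CPM in high-fat female 5, below the other 4 libraries at 643 to 671 CPM. It was at 791 CPM in chow female 5, above the others at 661 to 694 CPM. Chance flags about 1 in 20 groups.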

How the results depend on the processing

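The replicate numbers did not pair the libraries: over 27 same-numbered pairs the correlation of deviations was -0.067 to 0.161, and 2 exceeded 0.1. With the replicate block the Tcap difference between the sexes was 1.39 on chow and 1.0 on high fat, and the number of the 8 genes called was the same in every comparison. Without high-fat females 4 and 5 there was 1 call, Myoz2, for diet in females and 1, Myoz2 again, for the mean diet effect, at -0.19 (adjusted p = 0.00766, edgeR). For sex on high fat, again as a description, Tcap alone was past the threshold in 4 settings. These were the groups compared alone, the GC offset, the GC offset with replicate block, and chow male 4 joined as it stands. Pdlim5 then reversed to 0.13 with the GC offset and 0.11 with the GC offset and block; the cause was not tested. Leaving out 1 library at a time changed no count of calls among the 8 genes. The Ldb3 long-end difference between high-fat and chow males was 3.28 to 4.12 points with 1 library left out. Over all genes, the other settings gave 21 (groups compared alone) to 993 (DESeq2) calls for diet in females, against 457, and 57 to 572 for diet in males, against 138. They gave 0 to 58 (DESeq2) for the interaction, against 0, and 261 to 1549 for the mean diet effect, against 530. For sex they gave 351 to 1916 on chow, against 582, and 547 to 2448 on high fat, against 1866. With 1 library left out, calls for sex on high fat were 1096 (without high-fat male 3) to 3447 (without high-fat female 1), and on chow 259 (without chow male 2) to 861 (without high-fat female 5). For diet they were 219 (without chow female 4) to 909 (without high-fat female 1) in females, 42 (without chow male 1) to 198 (without high-fat female 5) in males, 356 (without chow male 1) to 655 (without high-fat female 5) for the mean effect and 0 to 5 for the interaction. High-fat females 4 and 5 limit what that group can show.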
